A study of Mus musculus with 18 samples.

Results

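The cytosolic ribosomal proteins are the structural proteins of the ribosome that works outside mitochondria. Their transcripts were followed through the probe sets whose only gene symbol is that of a large subunit protein (Rpl or Rplp), a small subunit protein (Rps) or Rpsa, with symbols of annotated pseudogenes left out. This gave 385 of the 35382 probe sets on the array, for 74 genes, of which 47 belong to the large and 27 to the small subunit. Another 64 probe sets name such a gene beside other symbols and were not analysed here. Of the 74 genes, 18 had 1 probe set and 56 had several, up to 41 for Rpl21. Unless stated otherwise a gene is given by its brightest probe set, judged by the mean of the 18 arrays, and 3 of these 74 lay under the median brightness of the table.

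The arrays came from C57BL/6 mice that carried the TN-XXL transgene and from their wild type littermates, with transgenic and wild type skeletal muscle, transgenic and wild type heart, and transgenic and wild type hippocampus as 6 groups of 3 arrays. TN-XXL reports calcium by energy transfer from a cyan to a yellow fluorescent protein that are joined through a calcium-binding domain of troponin C. The transgenic mice are titled +/+ in the labels, which give neither the promoter of the transgene nor the age of the animals, and do not say whether the tissues came from the same animals. Nor do they say that arrays stand for separate animals, so the p-values measure spread between arrays that may be of technical origin.

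Each ribosome contains 1 copy of nearly every ribosomal protein, bound to ribosomal RNA in a small subunit that reads the messenger RNA and a large subunit that joins the amino acids. The messenger RNAs of these proteins begin with a run of pyrimidines, the 5′ terminal oligopyrimidine (TOP) tract, through which the kinase complex mTORC1 controls their translation together. Several ribosomal proteins have paralogues of restricted expression. The best known in striated muscle is Rpl3l, which takes the place of Rpl3 in ribosomes of skeletal muscle and heart.

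The promoters of the genes whose values are followed most closely are shown because CCGGAAG, a sequence that ETS factors such as GABP bind, recurs in this family. Sequences are from RefSeq (mouse build GRCm38.p6) and run 5′ to 3′ along the gene's strand, from 120 bases before to 20 bases after the annotated start. Capitals mark CCGGAAG and the pyrimidine-rich TCTTTNT, each searched on both strands. RefSeq promoters were at hand for 60 of the 74 genes, not for Rpl3, Rps20 or Rps4l. Rpl11 lies at chr4:136053374-136053513 on the minus strand, Rpl41 at chr10:128549149-128549288 (minus), Rpl35 at chr2:39005112-39005251 (minus), Rps27l at chr9:66945966-66946105 (plus) and Rpl3l at chr17:24727706-24727845 (plus).
Rpl11: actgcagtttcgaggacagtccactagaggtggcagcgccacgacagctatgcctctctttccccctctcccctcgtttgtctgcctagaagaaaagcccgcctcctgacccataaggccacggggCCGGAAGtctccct
Rpl41: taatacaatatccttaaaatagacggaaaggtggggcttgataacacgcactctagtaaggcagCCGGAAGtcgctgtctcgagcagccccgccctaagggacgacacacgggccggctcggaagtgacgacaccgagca
Rpl35: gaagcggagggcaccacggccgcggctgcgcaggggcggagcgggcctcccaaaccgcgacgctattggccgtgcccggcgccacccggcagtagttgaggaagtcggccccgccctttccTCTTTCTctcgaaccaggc
Rps27l: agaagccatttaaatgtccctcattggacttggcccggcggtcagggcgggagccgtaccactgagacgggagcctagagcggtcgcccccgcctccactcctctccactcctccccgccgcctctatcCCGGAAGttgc
Rpl3l: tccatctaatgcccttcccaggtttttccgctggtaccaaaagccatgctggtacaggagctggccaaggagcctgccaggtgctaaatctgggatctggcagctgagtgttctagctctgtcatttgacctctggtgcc

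Over the whole window of 250 bases before to 50 after the start, CCGGAAG occurred in 27 of the 72 promoters of these genes (37.5%), against 8.86% of all 32851 promoters. TCTTTNT occurred in 22.2% of them and in 24.5% of all promoters. Within 20 bases of the start the shares were 8.33% for the ribosomal protein genes and 3.06% for all. TATAAA, the core of the TATA box, occurred in 9.72% against 13.6%, and CACGTG, the E-box that Myc binds, in 11.1% against 7.15%. Each motif was counted on its own, so a stretch could count for more than 1. Of the sequences printed, those of Rpl11, Rpl41 and Rps27l hold CCGGAAG, that of Rpl35 holds TCTTTCT, and that of Rpl3l holds neither. The same stretch of Rpl27a, which is not printed, holds neither as well. Over the whole window Rpl27a and Rpl35 also have CCGGAAG. These are matches of letters and do not show binding.

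All arrays entered 1 limma model. The median of all probe sets was 2.44 to 2.49 on the log2 scale in skeletal muscle arrays, 2.61 to 2.63 in heart arrays and 3.68 to 3.71 in hippocampus arrays, and arrays of a group correlated at 0.982 to 0.993. Summed markers matched the labels, with the mean of 6 muscle fibre genes at 11.54 to 11.63 in skeletal muscle arrays and at most 4.70 elsewhere.

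In skeletal muscle, transcripts of the ribosomal proteins stood higher in transgenic mice as a group, by a small amount. The median over the 74 genes was 8.02, 7.96 and 8.07 in the 3 transgenic muscle arrays, against 7.84, 7.84 and 7.75 in the 3 wild type muscle arrays. The groups did not overlap. Nor did the medians of all probe sets, which lay closer together, at 2.460, 2.485 and 2.454 in transgenic and 2.453, 2.438 and 2.440 in wild type muscle arrays. In heart the order was the other way, with 7.88, 7.86 and 7.81 in transgenic and 7.92, 7.97 and 7.91 in wild type arrays. This order rests on the brightest probe sets, since the heart medians over all 385 probe sets overlapped, with 8.13, 8.23 and 8.15 in transgenic and 8.14, 8.26 and 8.22 in wild type arrays. In hippocampus the medians were 8.02, 8.07 and 8.05 in transgenic and 8.00, 8.03 and 8.04 in wild type arrays, and the groups overlapped. Over all 385 probe sets they did not, with 8.400, 8.426 and 8.418 in transgenic and 8.316, 8.398 and 8.329 in wild type hippocampus arrays.

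**Figure D1:**
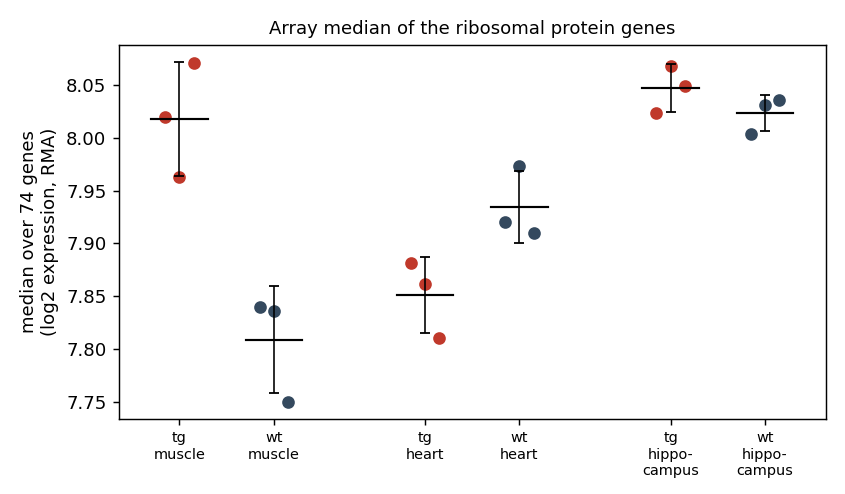
Median log2 expression over the 74 ribosomal protein genes in each array (points, n = 3 a group), with the group mean and SD (bars). tg is transgenic and wt wild type. The transgenic muscle arrays lie between 7.96 and 8.07, above all wild type muscle arrays (7.75 to 7.84).

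A probe set was called where its p, adjusted by Benjamini and Hochberg's method over the whole table, was under 0.05. In muscle 8.15% of all probe sets were called. Of the 385, 41 (10.6%) were called higher in transgenic arrays, against 3.86% of all probe sets, and 1 was called lower, against 4.30% of all. Of all probe sets at or over the median brightness, 6.82% were called higher. The median difference was 0.14 over the 385 probe sets and 0.02 over the table, and 85.5% of the 385 differences were above 0, against 53.1% of all. All 3 transgenic arrays lay above all 3 wild type arrays for 44.7% of the 385 probe sets (11.6% of all), and below them for 4.42% (10.3% of all). Without array 3 of the transgenic muscle group 27 probe sets were called higher, against 3.00% of all. A fit to the 6 muscle arrays alone called 6 higher, all of them for Rpl3, and 0 lower, against 0.916% and 1.45% of all. In the fit to all arrays 141 of the 385 had an unadjusted p under 0.05, as had 6751 of all 35382 and 5392 of the 17691 brighter probe sets.

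By gene, 10 of the 74 rose in transgenic muscle, 1 fell and 63 did not pass. For scale, of all probe sets at or over the median brightness 6.82% were called higher and 8.00% lower. The median gene difference was 0.15, and 61 of the 74 differences were above 0. Among large subunit genes 8 of 47 rose and 0 fell, with a median of 0.12. Among small subunit genes 2 of 27 rose and 1 fell, with a median of 0.19. The subunits were not tested against each other or against the shares of the table. The SE of a gene's difference was 0.06 to 0.21, and 30 of the 74 genes had an unadjusted p under 0.05.

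**Figure D2:**
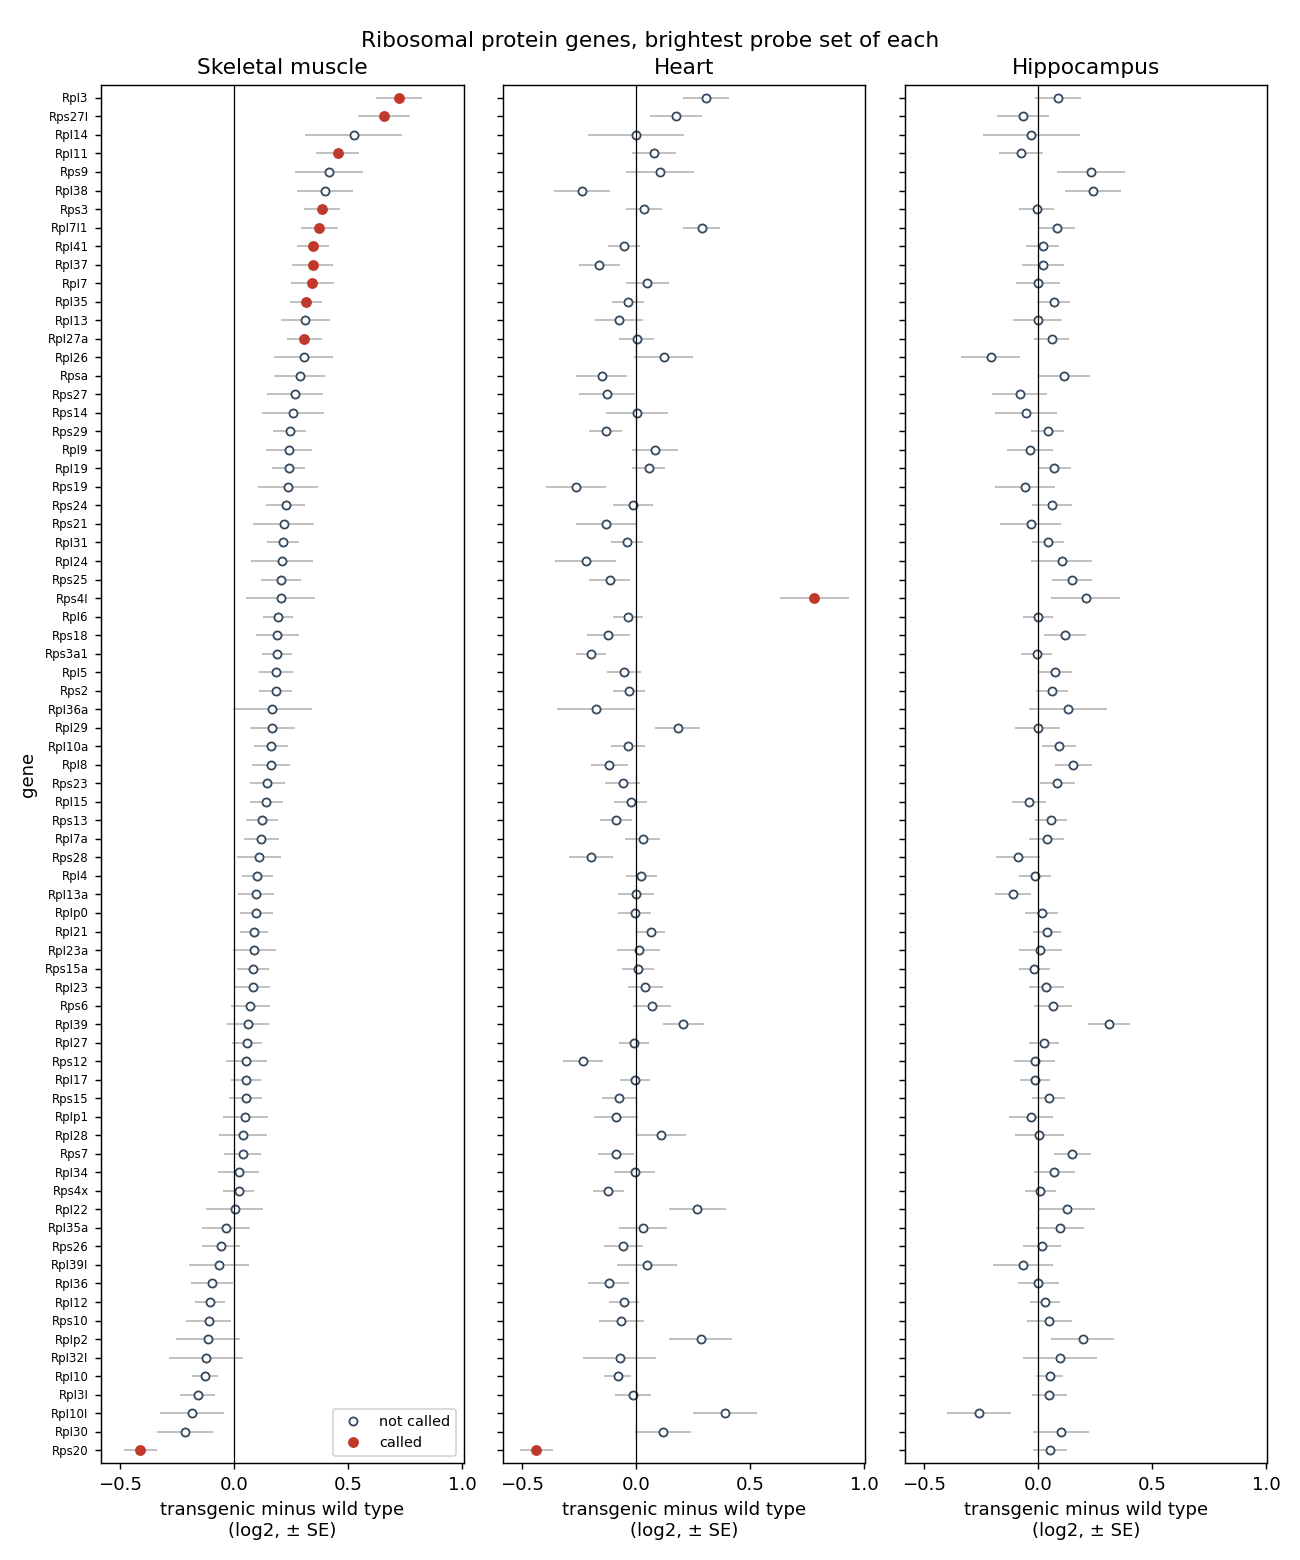
Difference between transgenic and wild type arrays (log2, ± SE of the limma fit) for each of the 74 genes, ordered by the difference in skeletal muscle; filled points passed at an adjusted p under 0.05. In muscle 61 of 74 points lie right of 0, in heart 30, and in hippocampus 52.

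Rpl3, a large subunit protein next to the site where peptide bonds form, differed most. Its values were 7.89, 7.87 and 7.83 in transgenic muscle arrays, against 7.17, 7.04 and 7.22 in wild type muscle arrays. Transgenic arrays were all higher, by 0.72 ± 0.10 (1.65-fold, limma adjusted p = 2.68e-04). The call held in the fit to muscle alone (adjusted p = 0.0165) and without any 1 of the 18 arrays (adjusted p = 7.16e-05 to 0.00212). All 6 probe sets of Rpl3, a pair of which hold identical values, were called, with differences of 0.70 to 0.74. They share a target, so they are not independent measurements.

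Rpl3l, the muscle paralogue of Rpl3, had 8.51, 8.65 and 8.69 in transgenic muscle arrays, against 8.76, 8.85 and 8.72 in wild type muscle arrays. All transgenic values lay below all wild type values, but the difference of −0.16 ± 0.08 did not pass (adjusted p = 0.282). In heart Rpl3l was nearly level, with 7.63, 7.66 and 7.63 in transgenic and 7.63, 7.68 and 7.64 in wild type arrays. Rpl3 in heart had 8.74, 9.18 and 9.01 in transgenic arrays, against 8.72, 8.66 and 8.62 in wild type arrays. The lowest transgenic heart array lay just above the highest wild type one, and the difference of 0.31 ± 0.10 did not pass (adjusted p = 0.128). Among its other probe sets the heart differences were 0.34 to 0.38, and 1 passed (0.38 ± 0.09, adjusted p = 0.036). That call ended without any 1 of 5 heart arrays (transgenic 2 or 3, or wild type 1, 2 or 3) or transgenic hippocampus array 2 or 3 (adjusted p = 0.0507 to 0.136), and in a fit to heart alone (0.271).

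**Figure D3:**
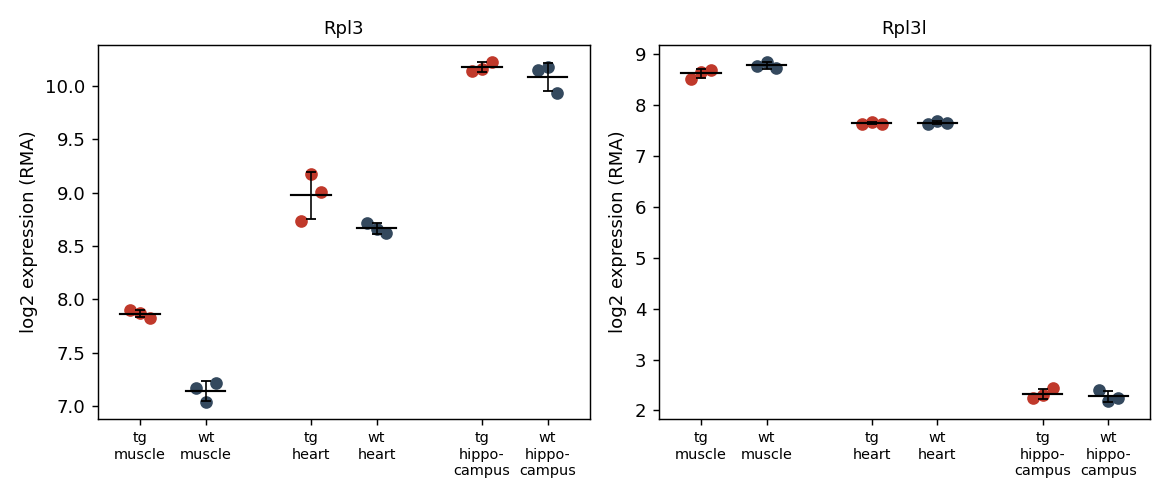
Log2 expression of Rpl3 and of its muscle paralogue Rpl3l in each array (points), with the group mean and SD (bars, n = 3); the scales of the panels differ. Rpl3 lies at 7.83 to 7.89 in transgenic and 7.04 to 7.22 in wild type muscle arrays, and Rpl3l at 2.19 to 2.44 in hippocampus arrays.

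Rpl11 and Rpl5 carry the 5S ribosomal RNA into the large subunit and, when free of it, bind the p53 regulator Mdm2. Rpl11 had 7.51, 7.85 and 7.78 in transgenic muscle arrays, against 7.19, 7.39 and 7.19 in wild type muscle arrays. The groups did not overlap, and Rpl11 rose by 0.45 ± 0.10 (adjusted p = 0.00671), with 5 of its 6 probe sets called (all 6 at 0.32 to 0.45). In the fit to muscle alone it did not pass (adjusted p = 0.137). Rpl5 had 7.83, 7.94 and 7.90 in transgenic arrays, against 7.77, 7.73 and 7.62 in wild type arrays. Its difference of 0.18 ± 0.08 did not pass (adjusted p = 0.179), although its groups did not overlap either.

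Rpl41, a very short and strongly basic protein of the large subunit, had 10.30, 10.23 and 10.24 in transgenic muscle arrays, against 9.87, 9.87 and 9.98 in wild type muscle arrays. It rose by 0.35 ± 0.07 (adjusted p = 0.00618), and all 5 of its probe sets, which hold 3 distinct sets of values, were called. Rpl35, which lines the outer end of the exit tunnel for the growing chain, had 9.51, 9.57 and 9.65 in transgenic arrays, against 9.24, 9.32 and 9.21 in wild type arrays. It rose by 0.31 ± 0.07 (adjusted p = 0.0104), with 3 of 3 probe sets called. Rpl7l1, a paralogue of Rpl7, had 7.80, 7.76 and 7.98 in transgenic arrays, against 7.48, 7.47 and 7.47 in wild type arrays, and rose by 0.37 ± 0.08 (adjusted p = 0.00805). For Rpl41, Rpl35 and Rpl7l1 the groups did not overlap, and each call held without any 1 of the arrays. Fitted to muscle alone, none of the 3 passed (adjusted p = 0.108 for Rpl41, 0.149 for Rpl35 and 0.114 for Rpl7l1).

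The calls on 3 further large subunit genes lay near the threshold and ended when any 1 of several arrays was left out. Rpl27a had 7.02, 7.05 and 6.93 in transgenic muscle arrays, against 6.79, 6.65 and 6.63 in wild type muscle arrays (0.31 ± 0.08, adjusted p = 0.0216, 7 of 9 probe sets called). Leaving out any of 4 muscle arrays ended its call, namely transgenic 1 and 2 and wild type 2 and 3 (adjusted p = 0.0606 to 0.0815). Rpl37, a zinc-binding protein, had 8.08, 8.16 and 8.13 in transgenic arrays, against 7.91, 7.73 and 7.69 in wild type arrays (0.35 ± 0.09, adjusted p = 0.0268), and its call ended without any of transgenic 2 and 3 and wild type 2 and 3 (0.073 to 0.104). Rpl7 had 6.26, 6.32 and 6.39 in transgenic arrays, against 6.13, 5.91 and 5.91 in wild type arrays (0.34 ± 0.10, adjusted p = 0.037). Its call ended without any of the 3 transgenic muscle arrays, wild type muscle arrays 2 and 3 and wild type hippocampus array 2 (0.0501 to 0.131). In all 3 genes the transgenic arrays lay above the wild type arrays.

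In several genes some probe sets were called and others were not. The dimmer of the 2 probe sets of Rpl23 rose by 0.47 ± 0.11 (adjusted p = 0.012), whereas the brighter stood at 0.08 ± 0.08 (adjusted p = 0.651). The dimmer call ended without transgenic muscle array 2 (adjusted p = 0.0524) and without wild type muscle array 3 (0.0577). Of 17 probe sets of Rpl7a 1 was called (0.33 ± 0.08), a call lost without any of transgenic muscle arrays 1 and 3 and wild type muscle array 1 (0.053 to 0.0653). Of 7 probe sets of Rpl19 3 were called, with all 7 between 0.23 and 0.26, and of 5 probe sets of Rpsa, which is also known as a laminin receptor, 2 were called, with all 5 between 0.19 and 0.29. Over the 385 probe sets 90.9% of the variance of the muscle difference lay between genes. That share is raised by the 18 genes with 1 probe set and by probe sets that hold identical values. Ribosomal protein genes have many near-identical processed copies in the genome, so which copy a probe set reads is uncertain.

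**Figure D4:**
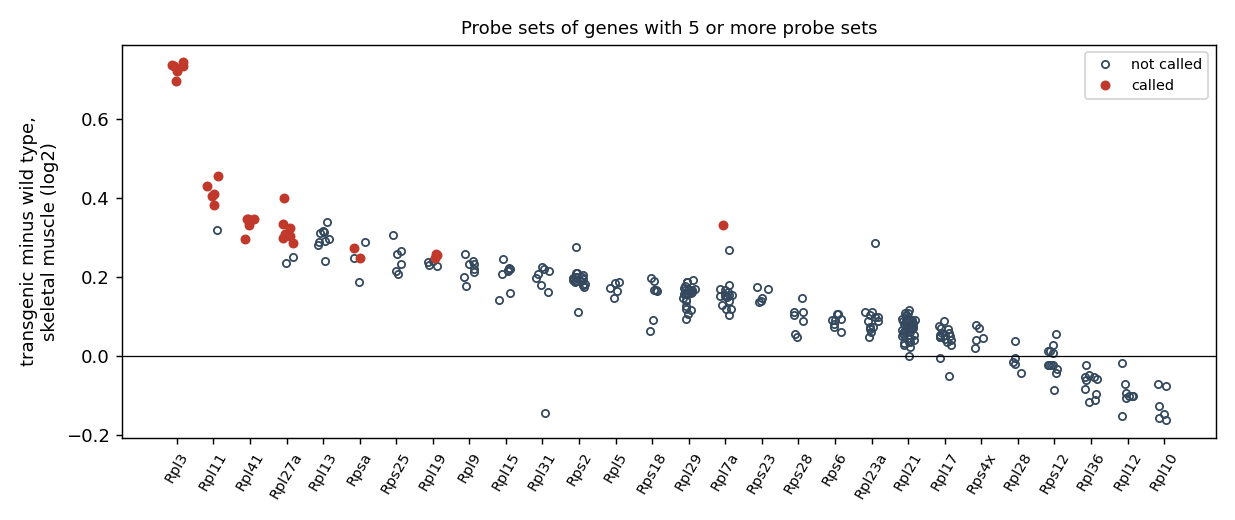
Difference between transgenic and wild type muscle arrays (log2) for each probe set of the 28 genes with 5 or more probe sets, ordered by the median of the gene; filled points passed. All probe sets of Rpl3 (0.70 to 0.74) lie above those of every other gene plotted, and those of Rpl21 reach 0.12 at most.

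The stalk proteins Rplp0, Rplp1 and Rplp2, which draw elongation factors to the ribosome, stood at 0.10 ± 0.07, 0.05 ± 0.10 and −0.11 ± 0.14 in muscle, and none of these passed (adjusted p = 0.547, 0.866 and 0.751). The largest of the 4 differences of Rplp0 probe sets, 0.24 ± 0.07, was called (adjusted p = 0.0473). Rpl38, which mice need for the translation of certain Hox messenger RNAs, had 8.29, 8.42 and 8.26 in transgenic and 8.06, 7.93 and 7.80 in wild type arrays. Its groups did not overlap, and its difference of 0.40 ± 0.12 did not pass (adjusted p = 0.061). Rpl10, which completes the catalytic part of the large subunit, went the other way at −0.13 ± 0.06 (adjusted p = 0.243), with 10.31, 10.29 and 10.33 in transgenic and 10.46, 10.42 and 10.43 in wild type arrays. Its groups did not overlap. Among the remaining paralogue pairs, Rpl10l, Rpl39 and Rpl39l, Rpl22, Rpl36a, and Rps4x and Rps4l stood between −0.19 and 0.20 in muscle and did not pass. Rpl22l1 and Rpl36al were not analysed here.

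In the small subunit Rps27l, a paralogue of Rps27 that p53 is known to induce, had 7.76, 7.40 and 7.63 in transgenic muscle arrays, against 7.08, 6.91 and 6.83 in wild type muscle arrays. The groups did not overlap, and Rps27l rose by 0.66 ± 0.11 (1.58-fold, adjusted p = 0.00157). Fitted to muscle alone it missed the threshold (adjusted p = 0.0589). Rps27 itself, at 0.27 ± 0.12, was not called either in the fit to all arrays (adjusted p = 0.248). Rps3, which lies at the entry of the messenger RNA channel, had 7.63, 7.50 and 7.69 in transgenic and 7.09, 7.33 and 7.25 in wild type arrays, and rose by 0.39 ± 0.08 (adjusted p = 0.00541, and 0.139 for muscle alone). All its transgenic values lay above its wild type values. Rps6, the protein that S6 kinase phosphorylates, stood at 0.07 ± 0.08 (adjusted p = 0.737) and its groups overlapped.

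Rps20, a protein of the head of the small subunit, fell in transgenic muscle and in transgenic heart. It had 9.04, 9.01 and 8.87 in transgenic muscle arrays, against 9.50, 9.32 and 9.34 in wild type muscle arrays, and fell by 0.41 ± 0.07 (adjusted p = 0.00219). In heart it had 8.78, 8.93 and 8.77 in transgenic arrays, against 9.29, 9.31 and 9.19 in wild type arrays, and fell by 0.44 ± 0.07 (adjusted p = 0.0043). No transgenic array reached the lowest wild type array in either tissue. In hippocampus it had 9.18, 9.17 and 9.20 in transgenic and 9.15, 9.15 and 9.09 in wild type arrays (0.05 ± 0.07). Both calls held without any 1 of the arrays, and neither passed in a fit to its own tissue alone (adjusted p = 0.102 in muscle and 0.144 in heart). Rps20 has 1 probe set, so no second measurement of it was at hand.

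Heart gave few calls. Of the 385 probe sets 3 were called higher in transgenic heart arrays and 1 lower, where 3.19% of all probe sets were called, 1.57% higher and 1.62% lower. The shares of 0.779% and 0.260% were below those of the table, and the median difference was −0.01. All 3 transgenic arrays lay above the wild type arrays for 3.64% of the 385 probe sets (9.19% of all) and below them for 8.57% (9.35% of all). By gene 1 of 74 rose and 1 fell. Beside Rps20, the gene that passed was Rps4l, a paralogue of Rps4x. Rps4l had 5.98, 5.52 and 5.76 in transgenic heart arrays, against 4.99, 5.02 and 4.91 in wild type heart arrays. The groups stood well apart, and Rps4l rose by 0.78 ± 0.15 (1.72-fold, adjusted p = 0.0107), with its other probe set at 0.53 ± 0.11 (adjusted p = 0.0138). The brighter probe set did not pass in the fit to heart alone (adjusted p = 0.100). In muscle Rps4l was dim, with 3.03, 2.44 and 3.00 in transgenic and 2.75, 2.72 and 2.38 in wild type arrays. Rps4x, the X-linked form, stood at −0.12 ± 0.07 in heart (adjusted p = 0.457), and Rpl7l1 at 0.29 ± 0.08 (adjusted p = 0.0705). Without wild type heart array 3 or transgenic heart array 3, 1 probe set was called higher in heart, and without transgenic heart array 1, 6 were.

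**Figure D5:**
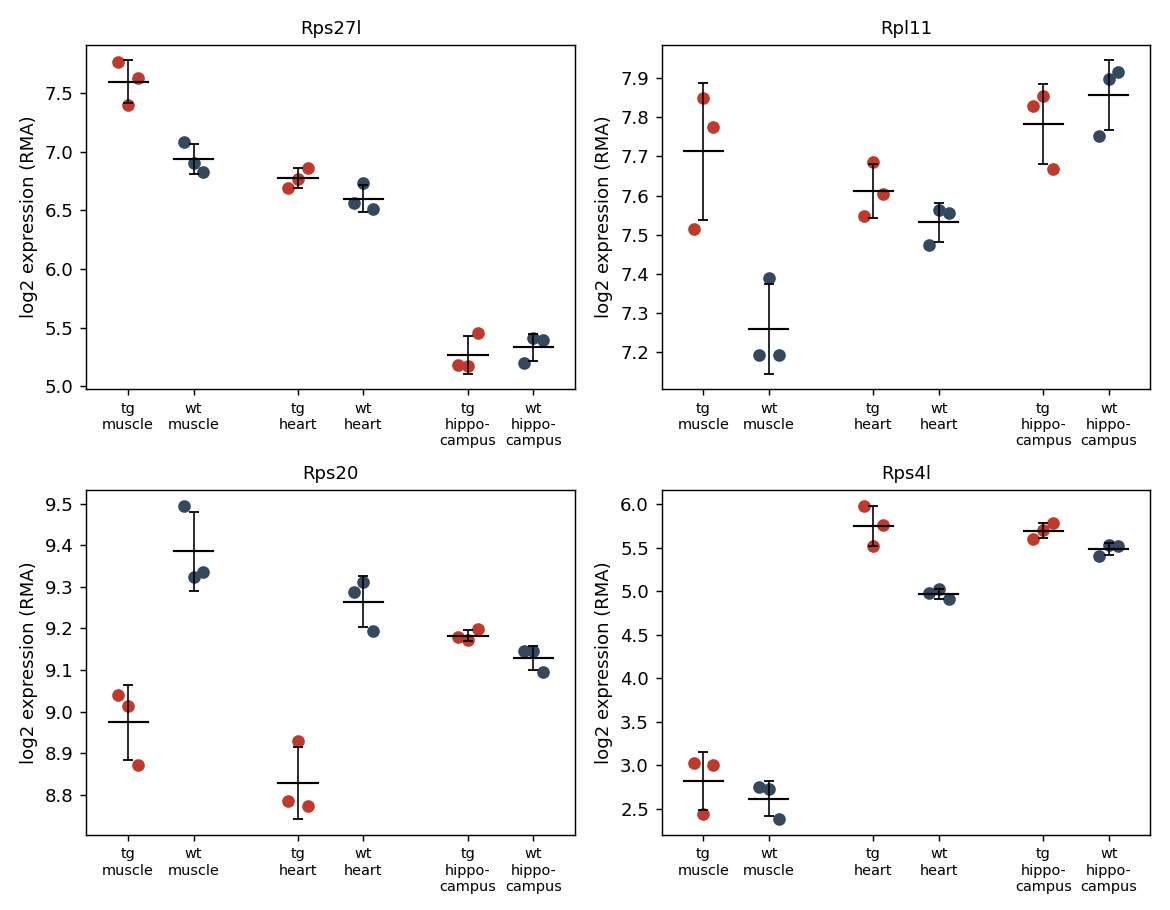
Log2 expression of Rps27l, Rpl11, Rps20 and Rps4l in each array (points), with the group mean and SD (bars, n = 3); the scales of the panels differ. Rps20 lies lower in transgenic than in wild type arrays of muscle and heart and not of hippocampus, and Rps4l is higher in transgenic heart arrays (5.52 to 5.98) than in wild type ones (4.91 to 5.02).

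In hippocampus limma called 0 of the 385 probe sets and 0% of all probe sets. An unadjusted p under 0.05 was reached by 4 of the 385 and by 1784 of all 35382. The median difference over the 385 was 0.05, and 79.7% of the 385 differences were above 0, against 47.7% of all. All 3 transgenic arrays lay above the wild type arrays for 12.7% of the 385 (5.95% of all) and below them for 0.779% (7.37% of all). The smallest p belonged to Rpl39, a protein of the exit tunnel, with 9.78, 9.94 and 9.93 in transgenic and 9.52, 9.74 and 9.46 in wild type arrays. Its groups stood apart, and its difference of 0.31 ± 0.09 did not pass (adjusted p = 0.680). The next were probe sets of Rps2 (0.19 ± 0.08), Rpl24 (0.24 ± 0.11), Rps21 (−0.24 ± 0.11) and Rpl38 (0.27 ± 0.13), with adjusted p of 0.917 to 1.00.

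The genotype difference itself was compared between tissues. In heart minus muscle 7 of the 385 probe sets (1.82%) were called, all lower in heart, against 2.55% of all probe sets (1.46% higher and 1.09% lower). They were 3 of Rpsa, 2 of Rpl27a, 1 of Rpl41 and 1 of Rps3a1. The probe set of Rpl41 with the smallest p had a genotype difference of −0.07 ± 0.07 in heart and 0.33 ± 0.07 in muscle, so that they differed by −0.40 ± 0.09 (adjusted p = 0.0366). A fit to these tissues alone called 0. Leaving out 1 array brought the count to 0 to 4 for 15 of the 18 arrays, and to 5, 5 and 7 without wild type heart array 1, wild type hippocampus array 3 and transgenic muscle array 2.

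In hippocampus minus muscle 12 probe sets (3.12%) were called, against 3.40% of all (1.88% higher and 1.52% lower). Lower in hippocampus were 5 of Rpl3, 5 of Rpl11 and that of Rps27l, and higher was that of Rps20. For Rpl3 the genotype difference was 0.09 ± 0.10 in hippocampus and 0.72 ± 0.10 in muscle (−0.63 ± 0.14, adjusted p = 0.023). For Rps27l it was −0.06 ± 0.11 and 0.66 ± 0.11 (−0.72 ± 0.16, adjusted p = 0.0211), for Rpl11 −0.07 ± 0.10 and 0.45 ± 0.10 (−0.53 ± 0.13, adjusted p = 0.0453), and for Rps20 0.05 ± 0.07 and −0.41 ± 0.07 (0.46 ± 0.10, adjusted p = 0.0229). A fit to these tissues alone called 6 probe sets, 5 of Rpl3 and that of Rps20. Leaving out 1 array gave 2 to 7 calls for 10 of the 12 arrays of these tissues, and 8 without transgenic muscle array 1 or wild type muscle array 2. An F test of both differences called 7 of the 385 (1.82%, against 3.89% of all), for Rpl3, Rpl11, Rpl41, Rps20, Rps27l and Rpsa, and 0 to 4 without 14 of the 18 arrays. Both comparisons share the muscle arrays.

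Among tissues of wild type mice, the scale of the arrays decides much of the result. The median difference of all probe sets was 0.07 in heart minus muscle, 0.67 in hippocampus minus muscle and 0.61 in hippocampus minus heart. Centring the arrays on their medians brought these to −0.10, −0.58 and −0.47, and quantile normalization to −0.00, −0.09 and −0.07. As deposited, 145 of the 385 probe sets were called higher and 20 lower in heart than in muscle (38.7% of all were called, 25.6% higher and 13.1% lower). After centring the counts were 68 and 79 (18.3% of all higher and 23.3% lower). After quantile normalization they were 105 and 36 (19.3% and 18.8% of all). In hippocampus against muscle 223 were higher and 28 lower (78.2% of all were called, 70.1% higher and 8.10% lower). The counts were 13 and 355 after centring (20.6% of all higher and 57.5% lower), and 35 and 262 after quantile normalization (22.6% and 29.6%). In hippocampus against heart 192 were higher and 59 lower (76.8% of all were called, 67.3% higher and 9.46% lower). The counts were 7 and 365 after centring (19.2% of all higher and 54.8% lower), and 18 and 280 after quantile normalization (21.5% and 27.2%). The sign depended on the scaling for 115, 295 and 279 of the 385 probe sets. The share of all probe sets with such a sign change is not given here.

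Some genes differed between tissues in the same direction under all 3 scalings. In heart against muscle these were 60 probe sets of 27 genes higher and 20 of 11 genes lower. In hippocampus against muscle they were 10 of 4 genes and 28 of 12, and in hippocampus against heart 7 of 2 genes and 59 of 21. The share of all probe sets called under all 3 scalings is not given here. These counts can therefore not be read as particular to the ribosomal protein genes. Rpl3 had 8.72, 8.66 and 8.62 in wild type heart and 10.15, 10.18 and 9.93 in wild type hippocampus, against 7.17, 7.04 and 7.22 in wild type muscle. It stood at 1.52 ± 0.10 in heart minus muscle and 2.94 ± 0.10 in hippocampus minus muscle. Rpl3l ran the other way, with 7.63, 7.68 and 7.64 in wild type heart and 2.40, 2.19 and 2.25 in wild type hippocampus, against 8.76, 8.85 and 8.72 in wild type muscle. Its differences from muscle were −1.12 ± 0.08 and −6.50 ± 0.08. In hippocampus Rpl3l lay under the median of all probe sets (3.68 to 3.71), so the size of the second difference depends on the lower end of the scale. The hippocampus minus muscle difference of Rpl3 was 1.68 after centring and 2.41 after quantile normalization, and that of Rpl3l −7.76 and −7.04. The order of the tissues was thus opposite for these paralogues, and in each gene no array of 1 tissue reached an array of another.

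Rps4l stood 2.35 ± 0.15 higher in wild type heart and 2.87 ± 0.15 higher in wild type hippocampus than in wild type muscle. After centring and after quantile normalization the hippocampus value was 1.61 and 1.39. Rpl30, a large subunit protein, stood 2.51 ± 0.12 higher in hippocampus than in muscle, or 1.25 and 0.98 under those scalings. Rps27l had 6.56, 6.73 and 6.51 in wild type heart and 5.20, 5.41 and 5.39 in wild type hippocampus, against 7.08, 6.91 and 6.83 in wild type muscle. It stood at −0.34 ± 0.11 in heart minus muscle and −1.61 ± 0.11 in hippocampus minus muscle. Under those scalings the heart value was −0.51 and −0.43 and the hippocampus value −2.87 and −2.90. Rplp0 had 9.26, 9.24 and 9.15 in wild type hippocampus, against 10.43, 10.46 and 10.49 in wild type heart (−1.24 ± 0.07) and 10.49, 10.44 and 10.26 in wild type muscle (−1.18 ± 0.07). Centring brought these differences to −2.33 and −2.44, and quantile normalization both to −1.70. In heart against muscle Rps29 stood at 0.94 ± 0.07, Rpl34 at −0.65 ± 0.09, Rpl7l1 at −0.51 ± 0.08 and Rpl4 at −0.50 ± 0.07. Each of these differences was called in the same direction under all 3 scalings. In whole tissue, fewer cells of a type and less of a transcript in each cell cannot be told apart.

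Other genes of the protein synthesis pathway were read in muscle from lists. For scale, 3.86% of all probe sets were called higher and 4.30% lower in muscle. Of probe sets at or over the median brightness, 6.82% were called higher and 8.00% lower. The lists are short, and their counts were not tested against these shares. Of 13 genes of elongation factors and other TOP messenger RNAs 1 rose and 0 fell, with a median of −0.01. The riser was Eef1a2, the elongation factor form of adult muscle and neurons, which averaged 10.82 ± 0.01 in transgenic muscle against 10.35 ± 0.06 in wild type muscle (SD, n = 3), a limma difference of 0.47 ± 0.06 (adjusted p = 1.73e-04). Of 25 initiation factors 3 rose and 1 fell (median 0.18). Of 41 genes of ribosome biogenesis 6 rose and 2 fell (median 0.10), among them Rrp12, a factor in subunit export, at 0.91 ± 0.11, and Fbl, which methylates ribosomal RNA, at 0.83 ± 0.12. Of 74 mitochondrial ribosomal proteins 18 rose and 2 fell (median 0.19), with Mrpl34 at 0.77 ± 0.09, Mrpl47 at 0.64 ± 0.07, Mrps15 at −0.66 ± 0.07 and Mrpl54 at −1.44 ± 0.11. Of 23 genes of mTORC1 and its translational arm 0 rose and 6 fell (median −0.06). They included Tsc1 (−0.88 ± 0.10) and Ddit4l (−1.81 ± 0.26), inhibitors of mTORC1, Mtor, its kinase (−0.50 ± 0.08), Larp1, which binds TOP messenger RNAs (−0.48 ± 0.07), and Myc, an activator of ribosome genes (−1.23 ± 0.21).

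In heart, Eef1a1, the widespread form of the same elongation factor, rose by 0.35 ± 0.09 (adjusted p = 0.0416), the only call among the 13. Of the 23 mTORC1 genes 4 rose and 1 fell, with Ddit4l at 1.94 ± 0.26, Eif4ebp1, a repressor of initiation, at 0.59 ± 0.09 and Mtor at −0.38 ± 0.08. Of the mitochondrial ribosomal proteins 0 rose and 1 fell, Mrpl54, at −0.77 ± 0.11. Initiation factors and biogenesis genes gave 0 calls in heart, and all lists gave 0 calls in hippocampus. In heart 1.57% of all probe sets were called higher and 1.62% lower, or 2.62% and 2.93% of the brighter ones, and in hippocampus 0% of all were called.

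Some markers of other cell types were also called between genotypes in muscle, where 3.86% of all probe sets were called higher and 4.30% lower. Of 8 endothelial markers 4 were lower in transgenic arrays, and the mean of the list ranged over 5.82 to 6.26 in transgenic and 6.50 to 6.61 in wild type muscle arrays. Of 3 satellite cell markers 1, Pax7, was lower (list mean 3.50 to 3.81 in transgenic and 4.05 to 4.38 in wild type arrays). Of 5 adipocyte markers 1, Adipoq, was higher (6.15 to 6.52 in transgenic and 5.37 to 6.03 in wild type arrays), as was 1 of 7 macrophage markers, Cd68 (3.72 to 3.98 and 3.37 to 3.76). Actc1 of the 5 heart muscle markers was higher and Camk2a of the 6 neuron markers lower in transgenic muscle. None of 6 fibroblast and none of 6 muscle fibre markers passed. In heart, where 1.57% of all probe sets were called higher and 1.62% lower, 2 of 8 endothelial markers were lower (7.10 to 7.41 in transgenic and 7.67 to 7.73 in wild type arrays). Of 5 heart muscle markers 1, Nppa, was higher and 1, Ryr2, lower, with list means of 11.21 to 11.34 in transgenic and 11.02 to 11.12 in wild type heart arrays. Acta1 of the 6 muscle fibre markers and Prox1 of the 6 neuron markers were lower in transgenic heart. The part of these cell types in the differences of ribosomal protein genes was not tested.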

How the data were processed

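RNA of 18 tissue samples was hybridised to Affymetrix mouse gene arrays. The authors deposited log2 expression values, 1 per probe set and array, and the submitters' processing notes name RMA and R 2.10.0 as their source. RMA corrects background, normalizes arrays and sums up the probes of a set. Whether all tissues were normalized together is not given in the sources used here. Genes were named from the platform annotation, which can be old. Of 35382 probe sets 21153 had 1 symbol (18781 symbols), 1867 several and 12362 none.

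Differences are from 1 model of 6 group means, fitted with limma 3.58.1 under R 4.3.3 to the unfiltered deposited values (12 residual and 2.67 prior degrees of freedom). The SE in 1 tissue thus draws on the spread in all 3. Tests were two-sided, and p-values were adjusted over all probe sets of a comparison. The number of arrays limits the precision. The fit was tested on simulated data.

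Named were up to 12 called genes in each direction of each genotype comparison by size, or those of the 10 smallest p where fewer than 10 probe sets passed, the 6 highest and 6 lowest of each tissue pair, and a set of paralogues, stalk proteins, Rpsa, Rps6, Rpl5 and Rpl11. The members and gene lists were chosen with earlier results of these data known. Alternatives were other sets of arrays, blocks, dim probe sets left out, centring, quantile normalization, an intensity trend, array weights, an adjusted p under 0.01, the mean of a gene's probe sets, and each array left out. Figures were drawn with matplotlib 3.10.9.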

Additional observations from a re-analysis of the deposited data

Results flagged for a closer look

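For 4 genes at least 1 probe set had a genotype difference in heart that departed from that in skeletal muscle by the test of the difference itself (limma, values are heart minus muscle on the log2 scale for the probe set with the smallest p). By the brightest probe sets 1 of the 74 genes was called, and by the mean of a gene's probe sets 2 were. Of the 385 probe sets 1.82% were called, against 2.55% of all. They were Rpsa (−0.43, adjusted p = 0.023), Rpl41 (−0.40, adjusted p = 0.0366), Rpl27a (−0.40, adjusted p = 0.0388) and Rps3a1 (−0.38, adjusted p = 0.0427). In each the transgenic minus wild type difference was above 0 in muscle and, except for Rpl27a at 0.00 ± 0.07, below 0 in heart. None of them was called with only the heart and muscle arrays in the fit (adjusted p = 0.105 to 0.146). Leaving out 1 of the 18 arrays ended the call on Rps3a1 for 15 arrays, on Rpl27a for 14, on Rpl41 for 11 and on Rpsa for 4.

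For 4 genes the genotype difference in hippocampus departed from that in skeletal muscle, again given for the probe set with the smallest p, which for Rpl3 and Rpl11 is not the brightest. Of the 385 probe sets 3.12% were called, against 3.40% of all. They were Rps27l (−0.72, adjusted p = 0.0211), Rpl3 (−0.65, adjusted p = 0.0107), Rpl11 (−0.54, adjusted p = 0.0192) and Rps20 (0.46, adjusted p = 0.0229). Rps20 was the only one of them with a lower value in transgenic muscle. With only the hippocampus and muscle arrays in the fit the calls on Rpl3 and Rps20 (adjusted p = 0.0491) held. By the brightest probe sets (Rpl3 −0.63, Rpl11 −0.53), leaving out 1 of the 18 arrays ended the call on Rpl11 for 16 arrays, on Rps27l and Rps20 for 6 each and on Rpl3 for 5.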

How the results depend on the processing

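The count of probe sets higher in transgenic muscle (41) was 6 in the fit to muscle alone (0.916% of all were higher), 83 without the dimmer probe sets (9.64%), 79 with an intensity trend (4.30%), 21 at an adjusted p under 0.01, and 27 to 44 with 1 array left out; the count lower (1) was 0 for muscle alone, 4 with the trend and 1 with any array left out. In heart the count higher (3) was 0 with only the heart arrays (0.0594% of all), 6 without dimmer probe sets (4.09%), 0 at an adjusted p under 0.01 and 1 to 6 with 1 array left out, and the count lower (1) was 0 and 2 in the first pair of settings. Hippocampus gave 0 calls in every setting. The heart minus muscle count (7) was 0 with only those arrays, 22 without dimmer probe sets, 2 after centring, 21 with the trend, 2 with array weights, 0 at an adjusted p under 0.01 and 0 to 7 with 1 array left out. The hippocampus minus muscle count (12) was 6, 20 without dimmer probe sets, 0 at an adjusted p under 0.01 and 2 to 11 with 1 array left out. The F test count (7) was 30 without dimmer probe sets, 3 after centring, 25 with the trend, 0 at an adjusted p under 0.01 and 0 to 8 with 1 array left out. For the heart minus muscle, hippocampus minus muscle and F test counts the share of all probe sets in each setting is not given here. Their changes between settings can therefore not be read as particular to the ribosomal protein genes. With the mean of a gene's probe sets 11, 2 and 0 genes were called in muscle, heart and hippocampus, the same numbers as by the brightest probe set.

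The labels do not say whether same-numbered transgenic and wild type arrays form pairs, and this was not tested. Deviations of such arrays correlated at −0.03 in muscle, 0.01 to 0.04 in heart and −0.03 to 0.02 in hippocampus. Of the 18 arrays 9 correlated best with their own number (6 of 6 in heart, 0 of 6 in muscle and 3 of 6 in hippocampus). With the number as a fixed block within each tissue, 23 probe sets were called higher in muscle (2.71% of all). In heart 1 was (0.718%), and Rps4l did not pass there (limma adjusted p = 0.0579). That block left 0 calls in heart minus muscle, 1 in hippocampus minus muscle and 0 by the F test. Under it 43 of 60 named calls passed. Only 16 of the 60 are genotype differences in 1 tissue, and most are differences between wild type tissues. A different block, random and shared by arrays of the same genotype and number across tissues, changed no call among the 60.

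In wild type tissues, 68 probe sets were higher and 79 lower in heart than in muscle after centring, 36 lower after quantile normalization, 11 lower at an adjusted p under 0.01, and 12 to 27 lower with 1 array left out (12 without wild type heart array 1). In hippocampus against muscle 13 were higher and 355 lower after centring, and 35 and 262 after quantile normalization. In hippocampus against heart 7 and 365, and 18 and 280. The shares of all probe sets under these scalings stand with the tissue comparisons above. Those at an adjusted p under 0.01 and with 1 array left out are not given here. The sign turned for Rps15a (−0.21 after centring and −0.11 after quantile normalization in hippocampus minus muscle, −0.31 and −0.21 in hippocampus minus heart), Rps21 (−0.10 and −0.33 in hippocampus minus muscle, −0.025 and −0.087 in hippocampus minus heart) and Rpl31 (−0.84 and −0.40 in hippocampus minus heart). By their construction these settings shift every value of an array. The cause of the other changes was not tested.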
